A study of Homo sapiens with 3 samples.

Results

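The ETS1 peaks of the SOX9 gene desert were the peaks of the consensus list whose midpoint lay within 1 Mb of the transcription start site (TSS) of SOX9. They were 32 of the 26970 peaks listed. The gene was selected on its number of associated peaks, so that number is a description here and was not tested. SOX9 (ENSG00000125398) lies on the plus strand of chromosome 17 from 70117161 to 70122557 in hg19, and its canonical TSS is at 70117161. The list came from ChIP-Seq of ETS1 in SCC25 cells, a long established line of tongue squamous carcinoma that the study counts among mesenchymal head and neck cancers. The labels name no treatment, and all 3 ChIP samples are of this cell line. In 2 of them ETS1 was precipitated with the C20 antibody and in 1 with the 501A antibody. The authors combined the 3 samples by IDR, which keeps peaks that rank reproducibly between replicates, into positions with no signal, summit or value per sample. No spread between samples, no depth per sample and no comparison of the antibodies could therefore be had. Intervals below are 95% Wilson intervals, which cover counting error only, and neighbouring peaks are not independent of each other.

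ETS1 is a transcription factor that binds DNA through its ETS domain at sites with a GGAA core, often beside sites of other factors such as AP-1. SOX9 is a transcription factor with an HMG box that directs cartilage formation and testis development and is also active in stem and progenitor cells of epithelia. The gene lies between long stretches without protein-coding genes, and distant enhancers on its 5′ side are known to control it during development. Super-enhancers (SEs) are clusters of neighbouring enhancers that together carry much H3K27Ac, a histone acetylation found at active enhancers and promoters. The SEs used below are those that the authors called in SCC25 with the ROSE algorithm, numbered by rank. Ranks start at the SE with the most H3K27Ac signal, so a high number means a weaker SE.

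A wide ETS1 peak covered the start of SOX9 itself. It spanned 70115943 to 70118957, and at 3015 bp it was the widest of the 32 and wider than 97.4% of the nuclear peaks. Its midpoint lay in an exon of SOX9, 289 bp inside the gene. The peak also covered a TSS of SOX9-AS1, a long noncoding RNA (lncRNA) transcribed from the opposite strand. In the 200 bp around the midpoint the GC content was 75.0%, with 26 CpG dinucleotides and 1 ETS core. The nearest peak on the 5′ side was 23.7 kb upstream and the nearest on the 3′ side 153 kb downstream, so that only 3 of the 32 peaks lay within 100 kb of the TSS.

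Most of the peaks lay far downstream of the gene. There were 9 peaks upstream, 1 over the TSS and 22 downstream. By midpoint, 23 of 32 were downstream (71.9%, interval 54.6 to 84.4%). Of the 32, 20 fell between 200 and 600 kb downstream. Of the 20 bins of 100 kb in the window, 8 held no peak, and the fullest were those from 200 to 300 kb and from 500 to 600 kb downstream, with 6 peaks each. The longest stretch without a peak ran for 462 kb, between the peaks 682 and 220 kb upstream, and 95.9% of the distances between neighbouring peaks in the genome were shorter. A stretch of 376 kb followed the peak 595 kb downstream. At the 5′ limit of the window the last peak inside was 716 kb from the TSS (386 bp wide) and the first outside was at 1049 kb (335 bp). At the 3′ limit the last inside was at 972 kb (1550 bp) and the first outside at 1072 kb (1758 bp), at COG1, which encodes a part of a Golgi tethering complex.

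**Figure D1:**
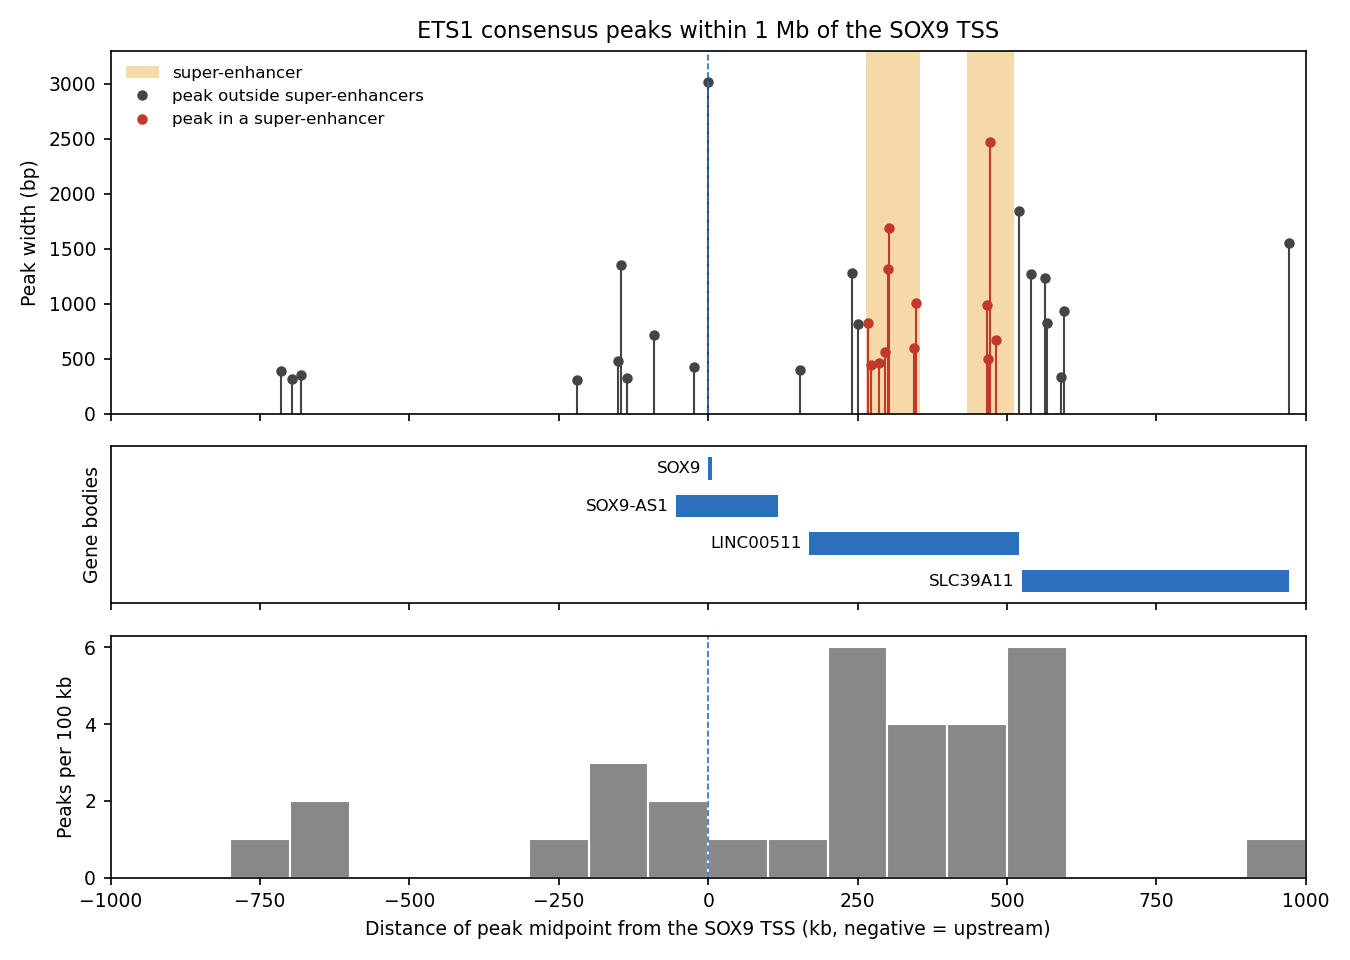
Distance of the 32 ETS1 peaks from the SOX9 TSS (x axis, kb, negative upstream) against peak width in bp (top, 1 stem per peak, red where in an SE, SEs shaded), with 4 gene bodies (middle) and peaks per 100 kb (bottom). Of the 32 peaks, 20 stand between 200 and 600 kb downstream, and none between 682 and 220 kb upstream.

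Where neighbours no more than 20 kb apart were taken as a group, the 32 peaks formed 15 groups, of which 8 were peaks on their own. The other 7 groups held 24 peaks, and the largest had 8 peaks over 60.9 kb from 241 to 302 kb downstream. The median distance between neighbouring members was 16666 bp, against 27031 bp between all nuclear neighbours. A distance of 20 kb or less separated 17 of the 31 neighbouring pairs (54.8%), against 42.6% of all nuclear pairs.

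The 9 upstream peaks lay in 5 groups, and 8 of them were narrower than the median nuclear peak of 969 bp. The 3 farthest were 716, 697 and 682 kb from the TSS, with widths of 386, 313 and 351 bp. After the empty stretch came a peak of 312 bp at 220 kb, the narrowest of all 32. A group of 3 followed, at 151, 145 and 135 kb, with widths of 478, 1350 and 325 bp. The 7 peaks to this point were intergenic, at least 29248 bp from any annotated TSS. Nearer to SOX9 lay a peak of 717 bp at 90.4 kb and one of 427 bp at 23.7 kb. The midpoint of the peak at 23.7 kb was in introns of SOX9-AS1 and LINC02097.

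The peak at 90.4 kb (70026394 to 70027110) covered TSSs of the lncRNAs ROCR and LINC01152, with its midpoint 7 bp away from the nearest. ROCR is known as an RNA of cartilage differentiation that acts on SOX9. Of the 9 upstream peaks, this was the only one at a TSS. The middle 200 bp of some upstream peaks are shown because they hold the motifs counted below. Each is the plus strand of hg19, 5′ to 3′, and capitals mark the ETS core AGGAAA or AGGAAG, the AP-1 motif TGANTCA and CCGGAA, each on either strand.
Peak 716 kb upstream, chr17:69401324-69401523: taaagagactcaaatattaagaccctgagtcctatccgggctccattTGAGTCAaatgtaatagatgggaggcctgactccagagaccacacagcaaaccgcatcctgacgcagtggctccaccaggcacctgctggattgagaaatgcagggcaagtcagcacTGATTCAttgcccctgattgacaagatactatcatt
Peak 682 kb upstream, chr17:69434946-69435145: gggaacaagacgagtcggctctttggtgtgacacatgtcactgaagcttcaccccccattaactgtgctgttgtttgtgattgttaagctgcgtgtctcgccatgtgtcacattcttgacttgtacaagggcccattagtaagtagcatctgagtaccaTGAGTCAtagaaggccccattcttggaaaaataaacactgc
Peak 220 kb upstream, chr17:69897040-69897239: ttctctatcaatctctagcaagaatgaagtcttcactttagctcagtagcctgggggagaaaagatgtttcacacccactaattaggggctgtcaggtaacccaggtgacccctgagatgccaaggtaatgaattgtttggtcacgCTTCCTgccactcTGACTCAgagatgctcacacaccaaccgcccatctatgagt
Peak 151 kb upstream, chr17:69966490-69966689: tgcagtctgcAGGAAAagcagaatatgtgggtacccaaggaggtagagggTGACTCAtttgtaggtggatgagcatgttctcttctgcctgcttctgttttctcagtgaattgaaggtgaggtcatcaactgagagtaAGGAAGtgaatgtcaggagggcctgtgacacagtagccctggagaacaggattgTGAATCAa
Peak 145 kb upstream, chr17:69971856-69972055: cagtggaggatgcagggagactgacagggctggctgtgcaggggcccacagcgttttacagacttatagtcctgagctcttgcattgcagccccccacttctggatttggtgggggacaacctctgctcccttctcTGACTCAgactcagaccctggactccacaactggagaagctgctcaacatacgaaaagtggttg
Peak 90.4 kb upstream at ROCR and LINC01152, chr17:70026653-70026852: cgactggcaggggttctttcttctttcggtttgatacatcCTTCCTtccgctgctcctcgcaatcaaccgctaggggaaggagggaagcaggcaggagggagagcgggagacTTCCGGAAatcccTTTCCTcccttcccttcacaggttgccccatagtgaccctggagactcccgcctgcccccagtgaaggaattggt
The first 5 of these hold AP-1 motifs. The window at 220 kb also holds an ETS core 7 bp from its AP-1 motif, and that at 151 kb holds cores of which the nearest is 34 bp from AP-1. The window at ROCR holds no AP-1 motif, 2 ETS cores and 2 matches of CCGGAA. These matches of CCGGAA overlap each other on opposite strands. Of the upstream windows not shown, those at 697 and 135 kb each hold 1 ETS core and no AP-1 motif. The window at 23.7 kb holds none of these motifs.

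Downstream, the peaks followed the lncRNA gene LINC00511, which is transcribed towards SOX9. It spans 350 kb from 70286232 to 70636611 on the minus strand, has 107 annotated TSSs and held the midpoints of 14 of the 32 peaks. A further peak covered its 5′ end, 520 kb from SOX9, with a width of 1841 bp and a GC content of 81.5% in the middle 200 bp. Between SOX9 and LINC00511 there was a single intergenic peak of 396 bp at 153 kb. The first peaks inside the gene were at 241 kb (1281 bp) and 251 kb (814 bp), in introns and outside the SEs.

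Both SEs of the window lay inside LINC00511 and together carried 12 of the 32 peaks (37.5%, interval 22.9 to 54.7%). Of all nuclear peaks, 17.2% overlapped an SE by at least 1 bp. Of the 12 peaks, 8 lay in the SE of rank 908, which stands near the weak end of the SE list. The SE of rank 457 carried the other 4. A share above 17.2% therefore rests on the SE of rank 908. The 2 SEs make up 8.40% of the window, and within them stood 7.14 peaks per 100 kb against 1.09 in the rest of the window. No test was made, since the locus was picked for its peaks. The paper names SOX9 among the genes marked by SEs in SCC25, and links of SEs to genes were not examined here.

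The SE of rank 908 spans 89.8 kb from 70382045 to 70471834, which is 265 to 355 kb downstream of the SOX9 TSS, and carried 8 peaks. Of all SEs, 82.4% carried fewer. Per 10 kb it held 0.891 peaks, against a median of 0.764 over all SEs. Its peaks stood at 268, 273, 287, 295, 300, 302, 345 and 347 kb. The widest of these were the pair at 300 and 302 kb, with widths of 1318 and 1691 bp. The narrowest were those at 273 kb (441 bp) and 287 kb (461 bp).

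The SE of rank 457 spans 78.2 kb from 70550667 to 70628871, 434 to 512 kb downstream, and carried 4 peaks, which is the median of all SEs. Its density of 0.511 per 10 kb was lower than the median, and 30.9% of SEs had a lower one still. The peaks were at 467, 468, 471 and 482 kb, with widths of 991, 502, 2473 and 673 bp. The peak of 2473 bp was the widest downstream peak of the window. Of the 12 peaks in both SEs, 7 had their midpoint within 500 bp of a TSS of LINC00511, 2 lay 500 to 1500 bp from one and 3 lay farther away. Over all SEs, 2911 of the 4633 peaks lay over 1500 bp from a TSS. LINC00511 has 107 of the 214 TSSs annotated in the window. The peaks of the SEs had a median width of 748 bp, against 1021 bp for all 4633 peaks in SEs.

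The windows below come from peaks of the SEs and are shown for the motifs they hold, with capitals as above.
SE of rank 908, peak at 287 kb, chr17:70403623-70403822: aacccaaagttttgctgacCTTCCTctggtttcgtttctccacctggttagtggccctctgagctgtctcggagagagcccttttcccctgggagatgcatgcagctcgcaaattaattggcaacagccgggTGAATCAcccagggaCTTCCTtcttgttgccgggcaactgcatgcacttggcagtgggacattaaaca
SE of rank 457, peak at 467 kb, chr17:70584105-70584304: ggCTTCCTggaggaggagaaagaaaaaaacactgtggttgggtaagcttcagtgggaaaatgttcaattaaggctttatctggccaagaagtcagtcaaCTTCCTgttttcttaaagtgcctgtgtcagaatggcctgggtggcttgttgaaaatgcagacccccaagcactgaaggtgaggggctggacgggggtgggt
SE of rank 457, peak at 468 kb, chr17:70585232-70585431: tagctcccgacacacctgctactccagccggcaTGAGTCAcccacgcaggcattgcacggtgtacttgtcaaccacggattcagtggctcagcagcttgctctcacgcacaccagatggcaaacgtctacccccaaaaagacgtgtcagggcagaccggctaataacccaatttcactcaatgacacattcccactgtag
SE of rank 457, peak at 471 kb, chr17:70588067-70588266: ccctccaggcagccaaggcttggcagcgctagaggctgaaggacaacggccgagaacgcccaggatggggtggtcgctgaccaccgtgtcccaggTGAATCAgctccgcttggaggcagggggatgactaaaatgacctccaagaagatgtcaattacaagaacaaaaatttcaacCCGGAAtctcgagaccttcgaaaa
The window at 287 kb, at a TSS of LINC00511, holds 2 ETS cores and an AP-1 motif 8 bp from the nearer core. In the SE of rank 457 the motifs of the 200 bp windows were spread over neighbouring peaks. Of the motifs in capitals, the window at 467 kb holds ETS cores, that at 468 kb an AP-1 motif and that at 471 kb an AP-1 motif with CCGGAA. The window at 482 kb, not shown, holds 2 ETS cores and no AP-1 motif. Over the whole peak, 11 of the 12 peaks in both SEs hold an ETS core and 9 hold an AP-1 motif.

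Beyond LINC00511 the window is not a desert, because SLC39A11, which encodes a zinc transporter of the ZIP family, spans 447 kb there on the minus strand. Its body held 6 of the 32 peaks. In its introns lay 5 of them, at 541, 563, 567, 590 and 595 kb, with widths of 1268, 1232, 826, 337 and 935 bp. The last, at 972 kb with a width of 1550 bp, covered the TSS of SLC39A11 with its midpoint 77 bp from the nearest TSS of the gene.

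Over the window as a whole, 11 of 32 peaks had their midpoint within 500 bp of an annotated TSS (34.4%, interval 20.4 to 51.7%), against 43.3% of all nuclear peaks. Of these 11, 8 were nearest to a TSS of LINC00511, and 2 were at TSSs of protein-coding genes, namely SOX9 and SLC39A11. A further 2 peaks lay 500 to 1500 bp from a TSS, 11 were elsewhere in genes and 8 were distal intergenic. The window holds TSSs of 24 annotated genes, of which 2 are protein-coding and 14 are lncRNAs. A peak midpoint lay within 500 bp of a TSS of 6 of them, which were SOX9, SOX9-AS1, ROCR, LINC01152, LINC00511 and SLC39A11.

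The peaks of the window were narrower than those of the list, with a median width of 765.5 bp against 969 bp. The upstream peaks had a median of 386 bp and the downstream peaks one of 880.5 bp, and the ranges of 312 to 1350 bp and 337 to 2473 bp overlap. Narrower than 500 bp were 7 of the 9 upstream and 4 of the 22 downstream peaks. Of all nuclear peaks, 17.1% were narrower than 502 bp, the width of 1 of the members. Peaks far from TSSs are narrower throughout the list, with a median of 706 bp over 1500 bp from a TSS. Among members that far from a TSS the medians were 368.5 bp for the 8 upstream and 823 bp for the 11 downstream peaks. The width of a consensus peak is not a measure of its signal, which the list does not hold.

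**Figure D2:**
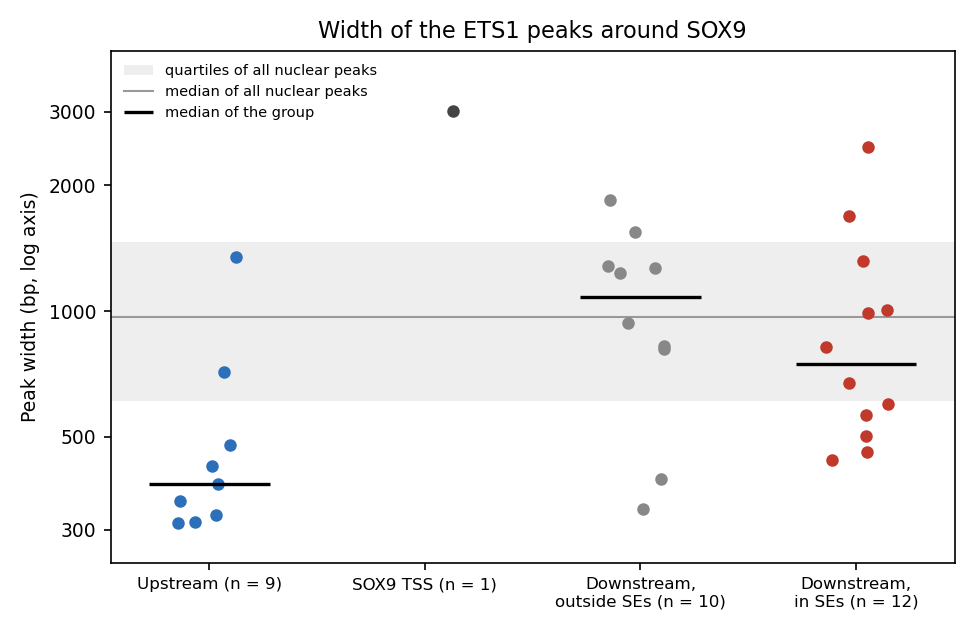
Widths in bp of the ETS1 peaks of the SOX9 window by side and SE, on a log axis, each point a peak, with black lines for group medians and the grey line and band for the median and quartiles of all nuclear peaks. The median was 386 bp upstream, 748 bp in SEs and 1083.5 bp for the 10 downstream peaks outside SEs, against 969 bp over all nuclear peaks.

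In the middle 200 bp, 16 of the 32 peaks held an ETS core (50.0%, interval 33.6 to 66.4%), against 44.0% of all nuclear peaks and 52.6% of those over 1500 bp from a TSS. CCGGAA, the form common at promoters, was found in 2 members and in 11.9% of nuclear peaks. The AP-1 motif was found in 9 members (28.1%, interval 15.6 to 45.4%), against 15.1% of nuclear peaks and 24.4% of those over 1500 bp from a TSS. TEAD (GGAATG) was found in 4 members against 11.6% of nuclear peaks, SOX (ACAAAG or ACAATG) in 3 against 14.2% and RUNX (TGTGGT) in 5 against 12.1%. All motifs were read on both strands, and a match is a description of the sequence only. An ETS core and an AP-1 motif stood together in 3 members (9.38%), against 8.0% of nuclear peaks and 13.0% of those over 1500 bp from a TSS. None of the ETS core, CCGGAA and AP-1 was found in 10 members, against 42.0% of nuclear peaks and 33.4% of those over 1500 bp from a TSS.

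The AP-1 motif was unevenly placed in the 200 bp windows. It was present in 5 of the 9 upstream and 4 of the 22 downstream peaks. Over 1500 bp from a TSS it was present in 5 of 8 upstream peaks (62.5%, interval 30.6 to 86.3%) and 0 of 11 downstream peaks, which allows a share of up to 27.3% by the limit of 3 counts for a count of 0 (Wilson upper bound 25.9%). In windows of 600 bp the shares were 6 of 8 and 5 of 11, and over the whole peak 6 of 8 and 7 of 11. The median width was 368.5 bp for these 8 upstream peaks and 823 bp for these 11 downstream peaks. A window of 200 bp therefore covered a smaller part of most downstream peaks, and the list gives no summits on which to centre it. The sides were compared after the motifs had been counted, and the difference was not tested.

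**Figure D3:**
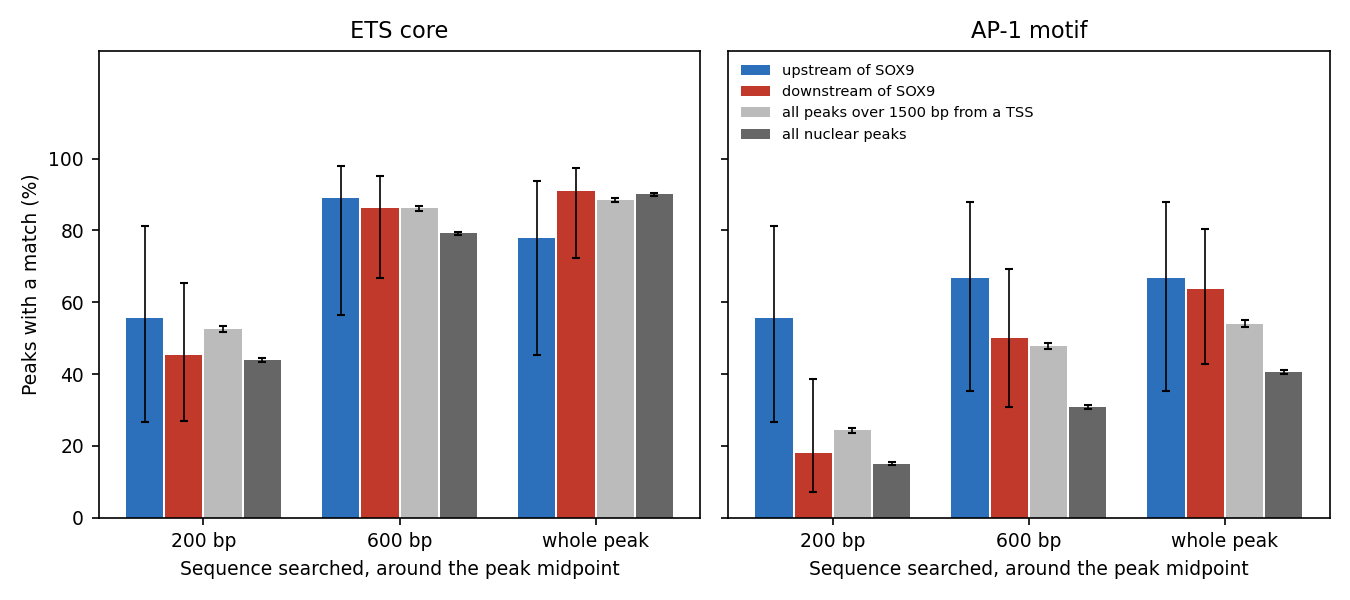
Shares of peaks (%) that hold the ETS core and the AP-1 motif, in 200 bp, 600 bp and the whole peak, for the 9 upstream and 22 downstream members, all peaks over 1500 bp from a TSS and all nuclear peaks, with 95% Wilson intervals as error bars. The upstream AP-1 share in 200 bp was 55.6% and the downstream share 18.2%, with overlapping intervals, and they were closer in 600 bp (66.7% and 50.0%).

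Set beside other genes, SOX9 ranked high by the number of peaks in its regulatory domain, the measure on which it was selected. The domain follows the default rule of the GREAT tool, in which a basal domain (5 kb before and 1 kb after the TSS) is extended by at most 1 Mb in each direction, as far as the basal domain of the next gene. It spanned 1971 kb for SOX9 and held 31 peaks, rank 14 among 19874 protein-coding genes. At least 1 peak lay in the domain of 74.9% of these genes and in the basal domain of 55.9%. Among the 1225 genes with a domain of at least 1 Mb, SOX9 ranked 4 with 31 peaks against a median of 1. Per 100 kb of domain it held 1.57 peaks, and 60.0% of all genes held fewer. A plain count within 1 Mb gave 32 peaks, near the median of 30 for all genes. Of the 31 peaks, 21 also lie in the domain of SLC39A11, since the rule assigns a peak to both neighbours.

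The genes with a domain of at least 1 Mb outside chromosome 8 and a peak count closest to that of SOX9 were TLE3, ZMIZ1, IRX2, TNS3 and BCL11B, with ties decided by the domain length closest to that of SOX9. TLE3, a corepressor of the Groucho family, had 30 peaks in 1309 kb. ZMIZ1, a transcriptional coregulator, had 32 in 1274 kb, and IRX2, a homeobox factor, had 29 in 1703 kb. TNS3, a tensin of focal adhesions, had 27 in 1365 kb, and BCL11B, a zinc finger transcription factor, had 26 in 1204 kb. ZFP36L1, which encodes an RNA-binding zinc finger protein and is named after its values had been seen, had 36 in 1157 kb, the most of the 1225 genes, and was as far from SOX9 in count as BCL11B. The likeness is in the count alone.

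**Figure D4:**
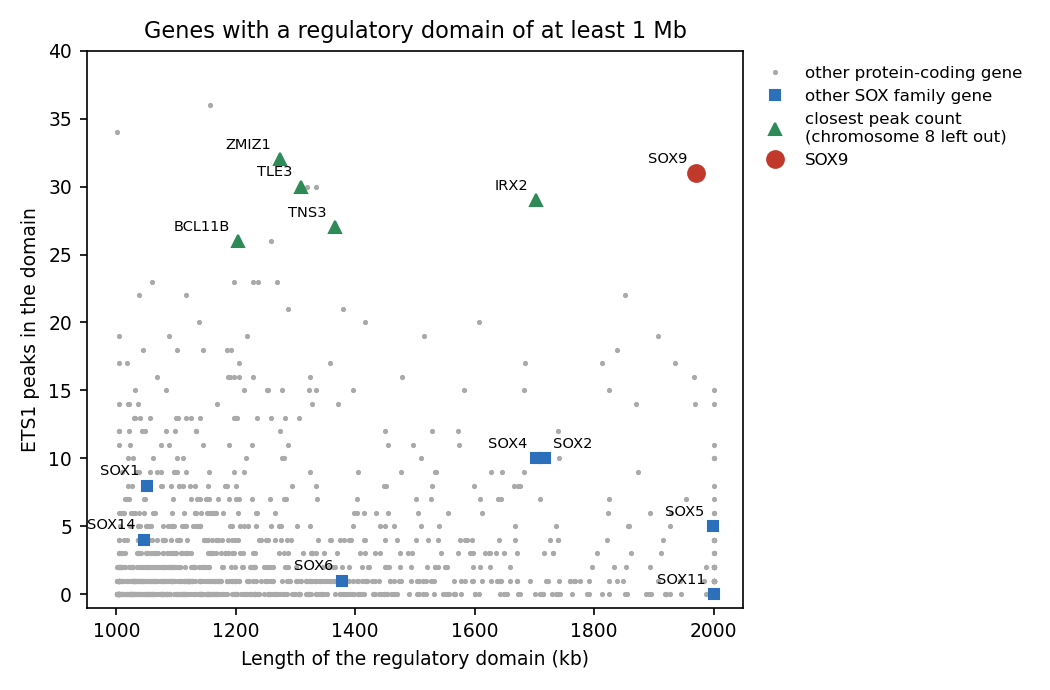
ETS1 peaks in the regulatory domain against the length of the domain in kb, for the 1225 genes with a domain of at least 1 Mb (grey points). SOX9 is a circle and other SOX genes are squares. Triangles are the 5 genes of closest count once chromosome 8 was left out. SOX9 lies at 31 peaks and 1971 kb, above the other SOX genes shown, which hold at most 10.

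Within the SOX family, 16 of 19 genes had a peak in their domain, against 74.9% of all genes, and 3 had a peak in the basal domain (15.8%, interval 5.52 to 37.6%), against 55.9%. Those 3 were SOX9, SOX2 and SOX12. Within 5 kb on either side of the TSS, a limit added after the values had been seen, 7 of the 19 had a peak, against 58.5% of all genes. The nearest peaks of SOX13, SOX15 and SOX4, at 1015, 1222 and 1405 bp, lay just past the basal domain. SOX2, a factor of stem cells and squamous epithelia, had 10 peaks in 1717 kb, and its nearest peak was 829 bp from the TSS. SOX4 also had 10, in 1702 kb. SOX5 and SOX6, partners of SOX9 in cartilage, had 5 and 1. SOX8 and SOX10, the genes closest to SOX9 in sequence, had 5 and 2 in the much shorter domains of 91.8 and 93.8 kb. No peak lay in the domains of SOX3, SOX11 and SOX21, although that of SOX11 is 2000 kb long.

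**Figure D5:**
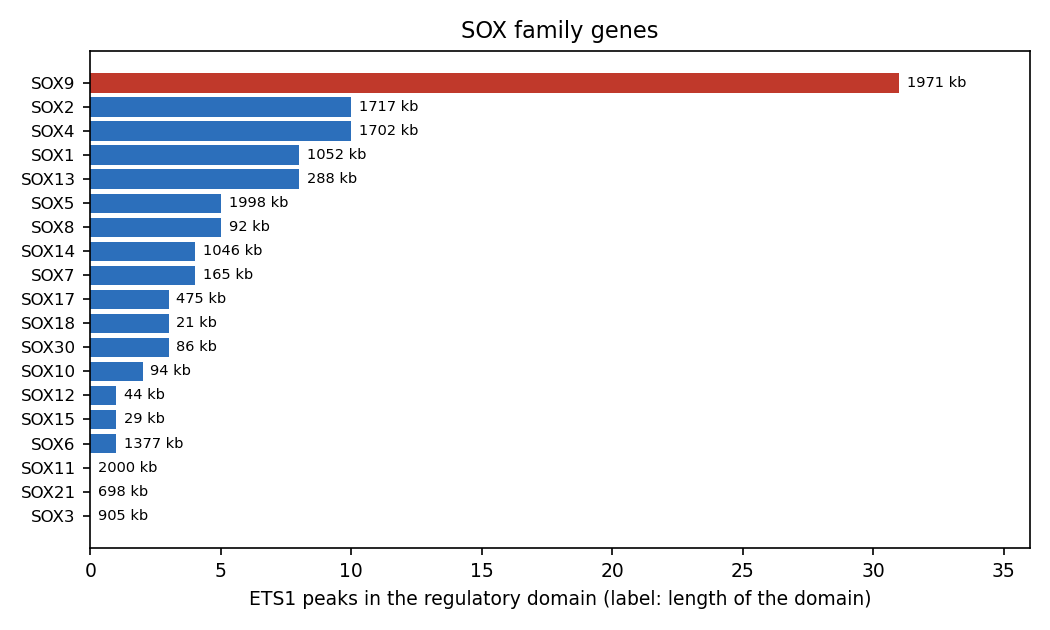
ETS1 peaks in the regulatory domain of each of the 19 SOX genes, with the length of the domain in kb beside each bar. SOX9 holds 31, followed by SOX2 and SOX4 with 10 each.

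Of 9 neighbouring protein-coding genes, 6 had a peak in their basal domain, near the 55.9% of all protein-coding genes. KCNJ2, which encodes an inward rectifier potassium channel and lies across the desert on the 5′ side, had no peak in its basal domain and 1 in its domain of 1093 kb. KCNJ16, a channel gene beside it, had none in the basal domain and 3 in the whole domain. MAP2K6, a kinase of the p38 pathway, had a basal peak. On the 3′ side SLC39A11, COG1, FAM104A, C17orf80 and CDC42EP4 each had a basal peak, and the somatostatin receptor gene SSTR2 had none. FAM104A and C17orf80 share the same peak, whose midpoint lay 23 and 16 bp from their TSSs, so it counts for both genes. CDC42EP4, an effector of CDC42, held 14 peaks in 377 kb.

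The stretches on either side of SOX9 were also compared with other deserts, a comparison added after the positions of the genes had been seen. In the annotation 638 stretches of at least 500 kb hold no protein-coding gene, with a median of 1 peak and 0.720 peaks per Mb, and 266 of them hold none. The desert between KCNJ2 and SOX9, at 1941 kb, held 10 peaks or 5.15 per Mb and ranked 112 by density. That between SOX9 and SLC39A11, at 520 kb, held 16 peaks or 30.8 per Mb and ranked 4 by density and 13 by count. It contains the 350 kb of LINC00511, and 8 of its 16 peaks lay within 500 bp of a TSS of this lncRNA. These ranks rest on the peaks by which the locus was chosen.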

How the data were processed

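ETS1 ChIP-Seq libraries of SCC25 were sequenced as single-end reads. Per the labels, the submitters' processing notes name hg19, Bowtie 1.1.1 and SAMtools 1.3. The authors called peaks with MACS2 and combined the 3 samples by IDR. They deposited 1 list of positions (chromosome, start and end) with no score or value per sample. SE positions and ranks came from the study's supplement, and typical enhancers and knockdown data were not analysed here.

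Positions were converted to 1-based. Genes and TSSs came from GENCODE release 44 on GRCh37, whose nuclear sequence has the coordinates of hg19. The 9 mitochondrial peaks were left out. Members had their midpoint within 1 Mb of the SOX9 TSS. Motifs were searched in 200 bp at the midpoint, on both strands. The counting code was tested on simulated peaks. Python 3.11.15, pandas 2.3.3, scipy 1.17.1 and pysam 0.24.0 were used. Intervals are 95% Wilson intervals. No test was run, since the pooled list has no replicates.

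The members and lists were chosen with earlier results of these data known. Genes named were SOX9, the SOX family, the neighbouring genes, genes with a peak within 500 bp of a TSS in the window, and the 5 genes outside chromosome 8 with a domain of at least 1 Mb and the peak count closest to SOX9 (ties by the closest domain length). Peaks described singly were those in SEs, the nearest, the widest, the earliest in the list and those at the limits. The remaining members were added so that each of the 32 is accounted for. The meaning of the order of the list is not given in the sources used here. Alternatives were the distance limit, the list's first 13485 peaks, joined peaks, the overlap, the domain rule, the gap, the motif window and the TSS set.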

Additional observations from a re-analysis of the deposited data

How the results depend on the processing

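The 32 peaks within 1 Mb became 22 with a limit of 500 kb, 53 with a limit of 2 Mb and 19 with the first 13485 peaks of the list. The 31 peaks in the regulatory domain became 1 in the basal domain, 3 with an extension of at most 100 kb and 18 with the first 13485 peaks. The 15 groups became 21 with a gap of at most 10 kb and 8 with a gap of at most 50 kb. The share of peaks with the ETS core was 87.5% both in 600 bp windows and over the whole peak, and that with the AP-1 motif was 53.1% and 65.6%. With transcripts of protein-coding genes only, 6.25% of peaks lay within 500 bp of a TSS. The 3 SOX genes with a basal peak became 7 with 5 kb on either side of the TSS, a setting chosen after seeing the data. The share downstream and the number of peaks in SEs moved by less than their counting error or 1.5 times in each alternative that was run, from 70% to 78.9% and from 9 to 12. The list is pooled, so leaving out a replicate was not possible. No paired analysis was possible because the pooled list has no value per sample and the 501A sample carries no replicate number. Without depth or signal, a site that missed the IDR threshold cannot be told apart from an unbound one.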

Other observations

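The peaks just outside the window also lay mostly downstream. Between 1 and 2 Mb from the TSS there was 1 peak upstream, at 1049 kb, and there were 20 downstream, from 1072 to 1922 kb. The 2 flanks differ in genes. Upstream, the desert reaches to KCNJ2, whose TSS is 1951 kb away. Downstream, the TSSs of SSTR2, COG1, FAM104A, C17orf80 and CDC42EP4 lie 1044 to 1191 kb away. The 20 downstream peaks had a median width of 1366 bp. Of them, 4 had their midpoint within 500 bp of a TSS, against 43.3% of all nuclear peaks. Of the 20, 8 lay in the SE of rank 323, while 17.2% of all nuclear peaks overlapped any SE. This SE spans 89.5 kb from 71267211 to 71356748 on chromosome 17 and covers the TSS of CDC42EP4. That SE held 0.893 peaks per 10 kb, close to the 0.891 of the SE of rank 908.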
